A study of Mus musculus with 3 samples.

Results

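The adrenergic, cAMP and cGMP signalling genes are 53 of the 32285 genes in the series, taken by gene symbol alone: all alpha and beta adrenergic receptors, adenylyl cyclases, cyclic nucleotide phosphodiesterases, soluble guanylyl cyclase subunits, regulatory and catalytic subunits of protein kinase A (PKA), and cGMP-dependent kinases. The rule reads the symbol and no measured value. They were read in nuclei isolated from mouse hearts 2 weeks after surgery, in 3 single-nucleus libraries with 1 library per group. One heart group had sham surgery and received NS (Sham-NS). The others had a myocardial infarction, followed by NS in one (MI-NS) and by dapagliflozin in the other (MI-DAPA). Dapagliflozin inhibits the kidney glucose transporter SGLT2 and is used in diabetes and heart failure. The labels do not expand NS and give no strain, age, dose or number of animals behind a library. The MI-NS against Sham-NS comparison asks what differed 2 weeks after infarction, and MI-DAPA against MI-NS asks what differed with the drug. With 1 library per group there is no test, and each difference is one between these libraries. Brackets are 95% intervals for counting error only, exact Poisson for levels and exact conditional binomial for ratios.

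Noradrenaline and adrenaline act on the heart through adrenergic receptors: beta receptors couple to the stimulatory G protein, which turns on adenylyl cyclases to make cAMP, and alpha-1 receptors couple to phospholipase C. cAMP releases the catalytic subunits of PKA from the regulatory subunits, and PKA phosphorylates calcium channels and sarcomere proteins, which makes the beat faster and stronger. Nitric oxide binds soluble guanylyl cyclase, a pairing of an alpha and a beta subunit, to make cGMP, which acts through cGMP-dependent kinases to relax smooth muscle, and phosphodiesterases (PDEs) break both messengers down.

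The libraries held 6354 to 9744 barcodes, and 5372 to 8296 nuclei were kept, with median depths of 790 to 851 UMIs (distinct RNA molecules). Levels are given as CPM, a gene's UMIs for every 1000000 UMIs of its cell class and library. Clusters were named from marker genes with the 53 members left out of the clustering, and 8 classes had at least 40 nuclei in every library. The cardiomyocyte marker list summed to 162684 to 211694 CPM in cardiomyocyte-like nuclei and to 2976 to 7353 CPM in fibroblast-like, vascular endothelial-like and macrophage-like nuclei, so RNA of cardiomyocyte genes was read in these classes too. The libraries also differed in the share of UMIs from the nuclear RNA Malat1 (5.47% for Sham-NS, 9.31% for MI-NS and 5.97% for MI-DAPA) and in the median mitochondrial share (3.32%, 1.48% and 2.42%). The part of these library properties in the differences below was not tested. The libraries shared 13 to 20 barcodes per pair.

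The members' levels differed between the cell classes. Of the 53 genes, 40 had at least 50 UMIs in all nuclei together, and 19 of these 40 had their highest class in common in the 3 libraries, among the 8 classes with at least 40 nuclei in each. Cardiomyocyte-like nuclei were that class for 7 genes: Adra1a, Adrb1, Pde1c, Pde4a, Pde4d, Pde7a and Prkaca. Pericyte-like nuclei, the contractile cells that wrap capillaries, were that class for another 7: Adcy3, Adcy6, Gucy1a2, Gucy1b1, Pde4c, Pde8b and Prkg1. Macrophage-like nuclei were highest for Pde1b and Pde3b, among others, vascular endothelial-like nuclei for Pde2a and smooth muscle-like nuclei for Adcy5. The share of all genes with a highest class in common was not counted, so these counts have no background beside them. Pde8b, a high-affinity cAMP PDE, averaged 203 CPM over the 3 libraries in pericyte-like nuclei and 28.7 CPM in the class that came second. Adra1a averaged 33.6 CPM in cardiomyocyte-like nuclei and 3.95 CPM in the next class. The 13 genes below 50 UMIs were Adcy1, Adcy2, Adcy8, Adcy10, Adra1d, Adra2a, Adra2b, Adra2c, Gucy1b2, Pde6b, Pde6c, Prkar1b and Prkg2. Pde6c, a cone photoreceptor PDE, had 0 UMIs.

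**Figure D1:**
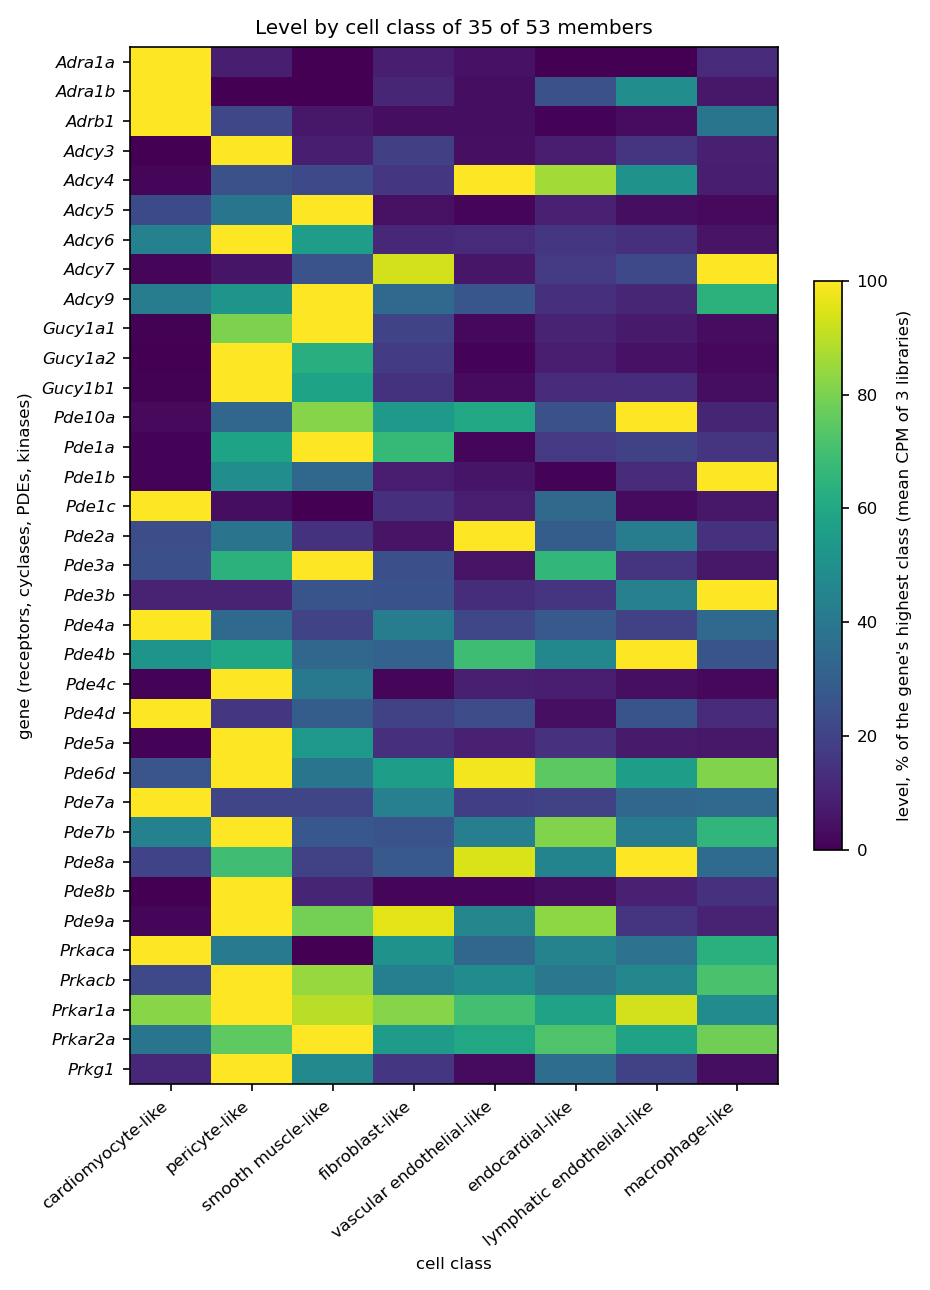
Heat map of 35 members, each with at least 50 UMIs in the 8 classes shown (rows, by role) by cell class (columns). Colour gives the mean CPM of the 3 libraries as a percentage of the gene's own highest class, so rows are not comparable in level. The Adra1a, Adrb1, Pde1c, Pde4a, Pde4d, Pde7a and Prkaca rows peak in the cardiomyocyte-like column, and the soluble guanylyl cyclase rows peak in the pericyte-like and smooth muscle-like columns.

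In cardiomyocyte-like nuclei 7 of the 21 members that could be measured (at least 50 UMIs over both libraries) differed at least 2-fold between MI-NS and Sham-NS, against 9.62% of all 8236 measurable genes. The 5 higher ones were Prkg1, Pde7b, Prkar1a, Prkacb and Pde4b (7.38% of all genes were that much higher), and the 2 lower ones were Adcy6 and Pde4c (2.23% of all genes). In the cluster led by Aqp4 and Hcn4 alone, Pde4c was at a log2 ratio of -0.28. Scaling by trimmed mean of M-values (TMM) factors, which lowered the median log2 ratio of all genes by 0.233, gave 3 higher and 3 lower of the 21. The share of all genes past 2-fold under that scaling is not given here. The median log2 ratio was 0.34 over the 21 members and 0.13 over all measurable genes. With dapagliflozin, 1 of 19 measurable members, Pde7b, differed at least 2-fold between MI-DAPA and MI-NS, against 4.97% of all genes. Of those 19, 15 were lower in MI-DAPA than in MI-NS and 4 were higher, while 34.9% of all measurable genes were higher. The median log2 ratio was -0.35 over these members against -0.16 over all genes. TMM scaling raised the median of all genes by 0.256, and Pde2a and Pde7a then lay above 0. Both comparisons share the MI-NS library, so a low or high MI-NS count moves both in opposite directions.

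**Figure D2:**
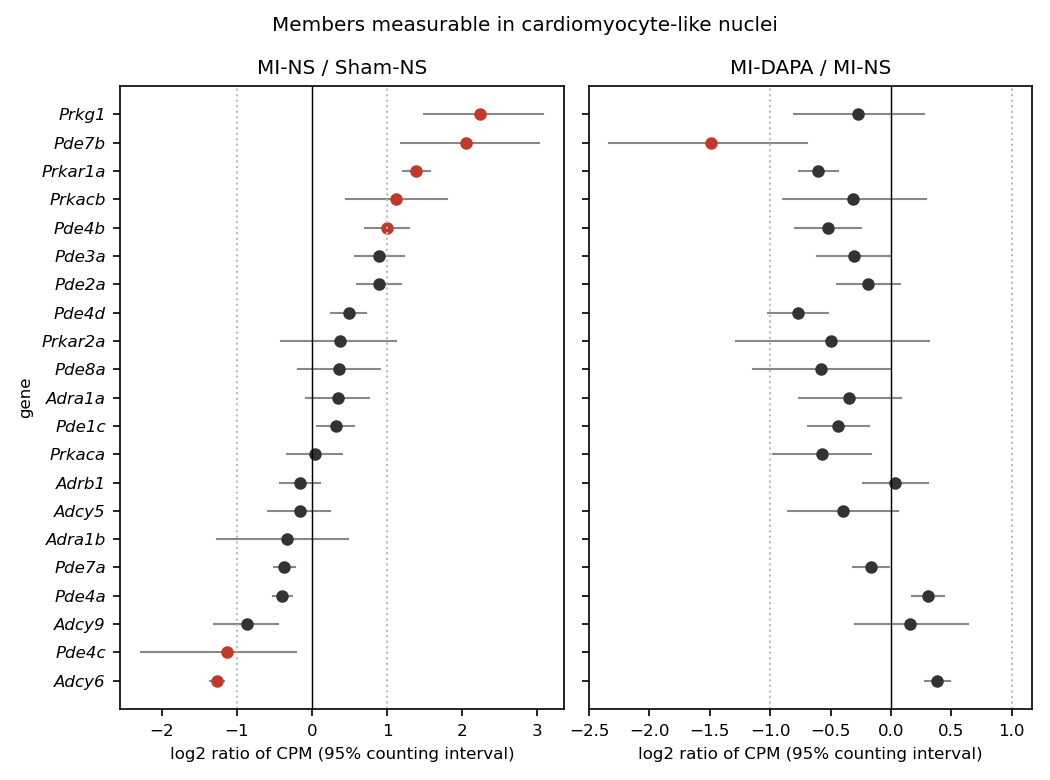
Log2 ratios of CPM in cardiomyocyte-like nuclei for the 21 members measurable in MI-NS against Sham-NS (left) and, where measurable, in MI-DAPA against MI-NS (right). Points are ratios, lines are 95% counting intervals, dotted lines mark 2-fold, and red points lie at or past it. Prkg1 and Pde7b lie highest on the left at 2.24 and 2.05, and Adcy6 lies lowest at -1.27.

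In fibroblast-like nuclei 4 of 22 measurable members differed at least 2-fold between MI-NS and Sham-NS, against 12.7% of all measurable genes. Gucy1a1 and Gucy1b1 were higher (8.88% of all genes), and Pde8a and Adcy9 were lower (3.86% of all genes). Between MI-DAPA and MI-NS 1 of 22 did, Adcy9, which was higher in MI-DAPA, against 4.52% of all genes. Vascular endothelial-like nuclei had 1 of 13 in the first comparison (Pde4c, lower in MI-NS; 9.05% of all genes) and 1 of 11 in the other (Pde4c, higher in MI-DAPA; 4.15%). Macrophage-like nuclei had 1 of 13 (Adcy6, lower in MI-NS; 7.74% of all genes) and 0 of 12 (5.71%). As shares of the measurable members these counts are 18.2% and 4.55% for fibroblast-like, 7.69% and 9.09% for vascular endothelial-like and 7.69% and 0% for macrophage-like nuclei, each set beside the shares of all genes above.

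The beta-1 receptor, Adrb1, the main beta receptor of the cardiomyocyte, was read at nearly the same CPM in the 3 libraries before TMM scaling. Its level in cardiomyocyte-like nuclei was 94.5 CPM in Sham-NS (377 UMIs), 84.7 CPM in MI-NS (180 UMIs) and 86.9 CPM in MI-DAPA (319 UMIs). The log2 ratio was -0.16 [-0.42 to 0.10] for MI-NS against Sham-NS and 0.03 [-0.23 to 0.31] for MI-DAPA against MI-NS, so a 2-fold difference lies outside both counting intervals. TMM scaling moves these ratios by -0.233 and 0.256. Both intervals then exclude 0, with MI-NS the lowest library, and still leave a 2-fold difference outside. Adra1a, the alpha-1A receptor, stood at 30.8 CPM in Sham-NS, 39.1 CPM in MI-NS and 30.8 CPM in MI-DAPA, and its intervals included 0 in both comparisons. Adra1b, the alpha-1B receptor, was read with 41, 17 and 22 UMIs, and its interval for MI-NS against Sham-NS, [-1.27 to 0.49], also included 0. Macrophage-like nuclei also held Adrb1, at 43.1, 18.9 and 41.0 CPM from 28, 15 and 11 UMIs.

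Adrb3, the beta-3 receptor that drives lipolysis in fat cells, sat almost wholly in 1 small class. Of its 307 UMIs over all nuclei, 296 came from 87 adipocyte-like nuclei of MI-NS, a level of 1659 CPM. Sham-NS held 2 such nuclei and MI-DAPA held 1, with 0 Adrb3 UMIs in each, which at these depths allows levels of up to 892 CPM and 3645 CPM, so the libraries cannot be compared. Cardiomyocyte-like nuclei had 0 Adrb3 UMIs in all 3 libraries, which allows up to 0.752 CPM in Sham-NS, 1.41 CPM in MI-NS and 0.817 CPM in MI-DAPA. The adipocyte-like nuclei of MI-NS also held 86 UMIs of Pde3b (482 CPM), the PDE through which insulin restrains lipolysis, and 41 UMIs of Prkar2b (229.8 CPM), a PKA regulatory subunit of fat and brain. In cardiomyocyte-like nuclei these genes stood at 9.41 CPM and 0.941 CPM in the same library. In the adipocyte-like nuclei of MI-NS all 8 markers of the adipocyte list were detected, and summed to 7002 CPM. The cardiomyocyte list summed to 8140 CPM in them, with all 9 detected, and the fibroblast list to 2764 CPM, with all 8 detected. In cardiomyocyte-like nuclei of that library the adipocyte list summed to 963 CPM and the cardiomyocyte list to 162684 CPM.

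Adcy6, a major adenylyl cyclase of the cardiomyocyte, was lower in MI-NS than in the sham library in 7 of the 8 classes, each with a counting interval below 0. In cardiomyocyte-like nuclei it stood at 1196 CPM in Sham-NS (4769 UMIs), at 497 CPM in MI-NS (1056 UMIs) and at 649 CPM in MI-DAPA (2382 UMIs). The MI-NS level was 2.41-fold lower than the sham level, a log2 ratio of -1.27 [-1.36 to -1.17], and the MI-DAPA level lay between the others, at 0.38 [0.28 to 0.49] above MI-NS. The gene is on the minus strand of chromosome 15 (chr15:98589973-98610076, mm10).

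Most other classes also had Adcy6 lower in MI-NS than in the sham library. Smooth muscle-like nuclei held Adcy6 at 1325, 479 and 1183 CPM (79, 41 and 53 UMIs) in sham, MI-NS and MI-DAPA nuclei. Pericyte-like nuclei, where it was highest, held it at 1984, 1421 and 1918 CPM, a log2 ratio of -0.48 [-0.70 to -0.27] and then 0.43 [0.21 to 0.66]. Macrophage-like nuclei had 146, 57.9 and 67.1 CPM, which is 2.51-fold lower in MI-NS than in the sham library. Fibroblast-like nuclei had 243, 173 and 191 CPM, and vascular endothelial-like nuclei had 266, 168 and 218 CPM. Endocardial-like nuclei had 395, 235 and 217 CPM, with MI-DAPA, read from 16 UMIs, the lowest. Lymphatic endothelial-like nuclei had 249.9, 275 and 190.1 CPM from 11 to 33 UMIs, and were the class in which MI-NS was not below Sham-NS. MI-NS was the lowest of the 3 libraries in the cardiomyocyte, pericyte, smooth muscle, fibroblast, vascular endothelial and macrophage classes. The cardiomyocyte marker list was also lowest in MI-NS in the macrophage, pericyte, smooth muscle, fibroblast and vascular endothelial classes. In the few adipocyte-like nuclei it was highest in MI-NS. It was 6458, 4694 and 5382 CPM in macrophage-like, 6801, 3700 and 5676 CPM in pericyte-like and 8819, 5172 and 7031 CPM in smooth muscle-like nuclei. It was 5687, 2976 and 5096 CPM in fibroblast-like and 7353, 3796 and 6139 CPM in vascular endothelial-like nuclei. Its part in the Adcy6 readings of these classes was not tested. The fibroblast marker list in smooth muscle-like nuclei was 1258, 5067 and 2500 CPM, highest in MI-NS, and its part in the Adcy6 values there was not tested.

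**Figure D3:**
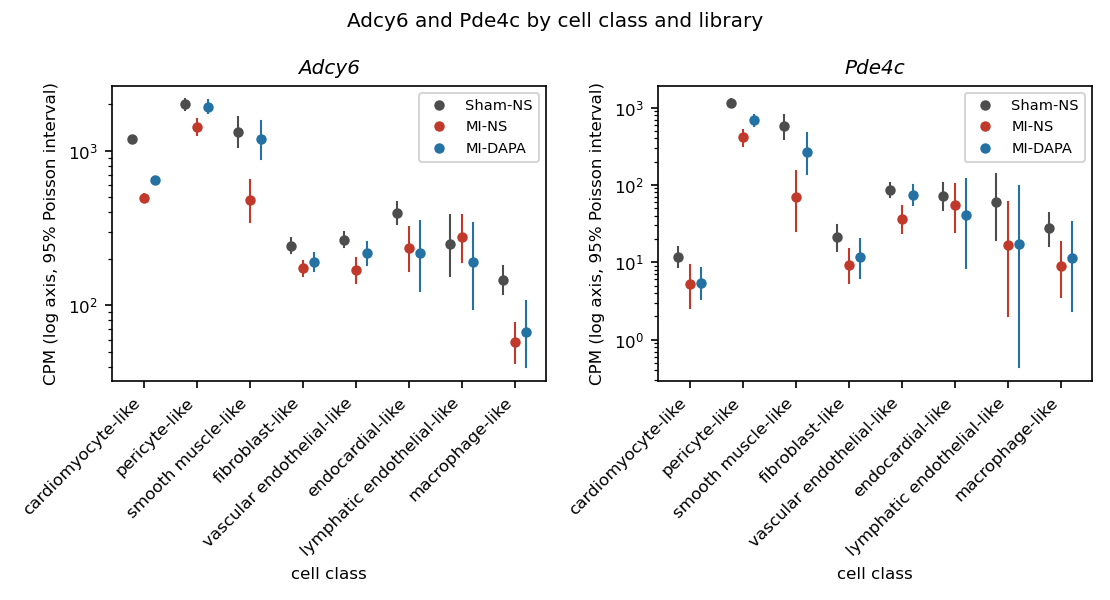
Levels of Adcy6 (left) and Pde4c (right) in 8 cell classes, in CPM on a log axis. Points are the 3 libraries (grey Sham-NS, red MI-NS, blue MI-DAPA) and lines are 95% Poisson intervals. MI-NS lies below Sham-NS for Adcy6 in 7 of 8 classes and for Pde4c in every class shown, with few UMIs for Pde4c outside the pericyte-like and vascular endothelial-like classes.

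Adcy9, a cyclase with a wide tissue range, was low in MI-NS and high in both other libraries in fibroblast-like nuclei. It was read at 35.4 CPM in Sham-NS (47 UMIs), 13.2 CPM in MI-NS (24 UMIs) and 43.6 CPM in MI-DAPA (48 UMIs). MI-NS was 2.66-fold below Sham-NS (log2 -1.41 [-2.20 to -0.69]), and MI-DAPA was 3.27-fold above MI-NS (1.71 [0.99 to 2.50]). Vascular endothelial-like nuclei held it at 33.8, 11.7 and 25.9 CPM from 39, 8 and 17 UMIs, with MI-NS lowest there too. In cardiomyocyte-like nuclei Adcy9 was lower in both infarct libraries, at 52.7, 28.7 and 32.1 CPM, and the log2 ratio of -0.87 [-1.31 to -0.46] for MI-NS against Sham-NS did not reach 2-fold.

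Adcy7, the cyclase best known from blood and immune cells, had its high levels in macrophage-like and fibroblast-like nuclei. Fibroblast-like nuclei held it at 345 CPM in Sham-NS, 607 CPM in MI-NS and 741 CPM in MI-DAPA, so that both infarct libraries were above the sham library (log2 0.81 [0.66 to 0.97] for MI-NS against Sham-NS). Macrophage-like nuclei held it at 627, 524 and 664 CPM, with MI-NS the lowest (-0.26 [-0.46 to -0.06]). Adcy4, an endothelial cyclase, was read at 512, 553 and 580.5 CPM in vascular endothelial-like nuclei, and intervals in both comparisons included 0. Adcy5, the other main cardiomyocyte cyclase, stood at 39.1, 34.8 and 26.4 CPM in cardiomyocyte-like nuclei, again with intervals that included 0.

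The soluble guanylyl cyclase subunits gave the widest difference among the fibroblast members. Gucy1a1, the alpha-1 subunit, was read in fibroblast-like nuclei at 28.6 CPM in Sham-NS (38 UMIs), 224 CPM in MI-NS (408 UMIs) and 152 CPM in MI-DAPA (168 UMIs). Gucy1b1, the beta-1 subunit that carries the haem which senses nitric oxide, was read at 38.4 CPM (51 UMIs), 148 CPM (269 UMIs) and 121 CPM (133 UMIs). MI-NS was 7.74-fold above Sham-NS for Gucy1a1 (log2 2.95 [2.49 to 3.49]) and 3.82-fold for Gucy1b1 (1.93 [1.51 to 2.41]), and in MI-DAPA both stayed above the sham level. MI-DAPA was below MI-NS for Gucy1a1, by a log2 ratio of -0.55 [-0.82 to -0.29], and for Gucy1b1 the interval [-0.60 to 0.01] included 0. Gucy1a2, the alternative alpha-2 subunit, had the opposite direction, at 50.5, 25.8 and 29.0 CPM, a log2 ratio of -0.96 [-1.54 to -0.41] for MI-NS against Sham-NS.

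Within the fibroblast-like class the 2 subunits followed the clusters. In MI-NS and MI-DAPA the cluster led by Thbs4, Cilp2 and Col11a1 held Gucy1a1 at 294 and 293 CPM and Gucy1b1 at 182 and 204 CPM. That cluster had 10 sham nuclei, 1337 MI-NS nuclei and 495 MI-DAPA nuclei. The cluster led by Dpep1 and Penk, with 1527 of the 1758 sham nuclei, held Gucy1a1 at 29.0 CPM and Gucy1b1 at 40.4 CPM in Sham-NS. The cluster led by Duox1, Has2 and Vcan was the fibroblast cluster with over 200 nuclei in each library, and there Gucy1a1 stood at 27.9, 89.1 and 67.1 CPM (5, 49 and 36 UMIs) and Gucy1b1 at 22.3, 78.2 and 74.5 CPM (4, 43 and 40 UMIs). Inside it the MI-NS against Sham-NS log2 ratios were 1.55 [0.35 to 3.36] for Gucy1a1 and 1.65 [0.35 to 3.75] for Gucy1b1. Between MI-DAPA and MI-NS the Gucy1a1 log2 ratio was -0.00 [-0.31 to 0.29] in the Thbs4-led cluster. Adcy9 inside the Has2-led and Vcan-led cluster stood at 44.7, 9.09 and 44.7 CPM from 8, 5 and 24 UMIs, with MI-NS lowest as in the class. With classes set by marker level the class ratios were -1.04 and 1.12 for Adcy9 and, for MI-NS against Sham-NS, 1.23 for Gucy1b1.

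Pericyte-like and smooth muscle-like nuclei, where these subunits were highest, held nearly equal Gucy1a1 in MI-NS and Sham-NS, or less. Pericyte-like nuclei held Gucy1a1 at 519.5, 519 and 550.0 CPM and Gucy1b1 at 772, 643 and 695 CPM in sham, MI-NS and MI-DAPA nuclei. Smooth muscle-like nuclei held Gucy1a1 at 587, 455 and 937 CPM (35, 39 and 42 UMIs), 2.06-fold higher in MI-DAPA than in MI-NS. The 8 pericyte markers summed to 328, 503 and 342 CPM in fibroblast-like nuclei, with all 8 detected in each library. The 8 smooth muscle markers summed to 308, 578 and 397 CPM, with 7, 8 and 7 detected and the smooth muscle gene Cnn1 at 0, 7 and 0 UMIs. These lists were higher in MI-NS, as Gucy1a1 was, and their part in the result was not tested. In smooth muscle-like nuclei the fibroblast list was 1258, 5067 and 2500 CPM, and its part in the Gucy1a1 values there was not tested.

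Gucy1a1 (chr3:82092427-82145789) and Gucy1b1 (chr3:82032006-82074689) lie on the minus strand of chromosome 3, with 17737 bases between them in the mm10 annotation. Their promoters are shown because both subunits were higher in the fibroblast-like nuclei of the infarcted hearts, and that of Prkar1a because it was the member with a complete cyclic AMP response element and was higher in cardiomyocyte-like nuclei of those hearts. Each is the 250 bases before a transcription start from RefSeq (GRCm38.p6), 5′ to 3′ on the gene's strand, with TGACGTCA, the cyclic AMP response element, and TGACG, the shorter core within it, on both strands, in capitals. A full element also counts as cores, since it contains them.
Gucy1a1, chr3:82145651-82145900, minus strand: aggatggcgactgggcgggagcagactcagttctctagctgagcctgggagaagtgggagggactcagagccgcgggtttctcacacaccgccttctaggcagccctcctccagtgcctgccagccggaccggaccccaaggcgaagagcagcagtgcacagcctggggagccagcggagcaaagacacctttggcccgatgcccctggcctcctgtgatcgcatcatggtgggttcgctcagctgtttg
Gucy1b1, chr3:82074712-82074961, minus strand: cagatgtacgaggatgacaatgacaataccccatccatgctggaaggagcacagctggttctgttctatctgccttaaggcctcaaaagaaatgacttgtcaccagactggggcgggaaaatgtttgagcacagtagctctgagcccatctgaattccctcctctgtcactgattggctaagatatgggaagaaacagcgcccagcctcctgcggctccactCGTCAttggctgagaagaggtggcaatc
Prkar1a, chr11:109650699-109650948, plus strand: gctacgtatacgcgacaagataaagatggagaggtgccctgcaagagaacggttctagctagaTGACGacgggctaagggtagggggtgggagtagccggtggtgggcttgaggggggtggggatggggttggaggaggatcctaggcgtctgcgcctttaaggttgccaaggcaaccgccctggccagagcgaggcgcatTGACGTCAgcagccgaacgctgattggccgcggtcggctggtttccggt
RefSeq held promoters for 40 of the 53 members, in 80 windows. The full element was in 1 of these 80 windows, and in 1.55% of all 32851 windows of that length. The core was in 16 of the 80 windows (20.0%), from 14 of the 40 genes, and in 17.8% of all windows. Windows of 1 gene can overlap, and the shares were not compared by gene. The Gucy1b1 window above has 1 core and the Gucy1a1 window has none of these letters. A match is a description of the letters and not of a bound site.

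**Figure D4:**
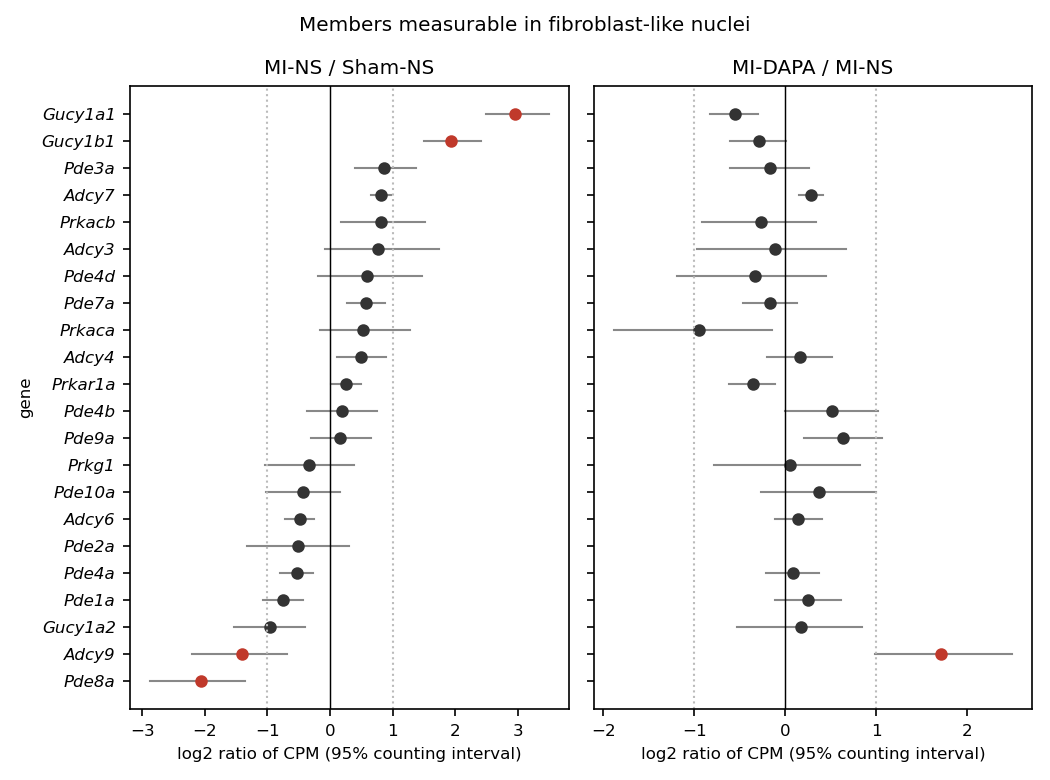
Log2 ratios of CPM in fibroblast-like nuclei for the 22 members measurable in MI-NS against Sham-NS (left) and, where measurable, in MI-DAPA against MI-NS (right), with 95% counting intervals and dotted lines at 2-fold. Gucy1a1 and Gucy1b1 lie apart on the left at 2.95 and 1.93, and Adcy9 is at -1.41 on the left and 1.71 on the right.

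Pde7b, a cAMP-specific PDE, gave the widest PDE difference in cardiomyocyte-like nuclei. It was read there at 4.01 CPM in Sham-NS (16 UMIs), 16.9 CPM in MI-NS (36 UMIs) and 5.99 CPM in MI-DAPA (22 UMIs). It was 4.15-fold higher in MI-NS than in the sham library (log2 2.05 [1.19 to 3.03]) and 2.80-fold lower in MI-DAPA than in MI-NS (-1.49 [-2.34 to -0.70]), so MI-NS was the highest library. The fibroblast marker list (91.0, 304 and 78.7 CPM) and the mesothelial list (1.25, 17.4 and 0.817 CPM) were also highest in MI-NS in these nuclei, and their part in the Pde7b values was not tested. Of its 36 MI-NS UMIs, 25 came from the cluster led by Myh7 and Ankrd1. In the cluster led by Aqp4 and Hcn4 alone the log2 ratio was 1.68 [0.41 to 2.86], and that for MI-DAPA against MI-NS was -0.81 [-1.95 to 0.44].

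Pde4b, a PDE that sits near L-type calcium channels, was read at 48.7, 97.4 and 67.8 CPM in cardiomyocyte-like nuclei. Its 2.00-fold difference between MI-NS and Sham-NS (log2 1.00 [0.71 to 1.29]) lies at the threshold, and it is 0.77 with TMM scaling, 0.89 with classes set by marker level and 0.53 in the Aqp4-led cluster alone. Vascular endothelial-like nuclei had the same order for Pde4b, at 63.3, 123 and 99.0 CPM, a log2 ratio of 0.96 [0.49 to 1.43]. The fibroblast marker list in vascular endothelial-like nuclei was 406, 1343 and 318 CPM, also highest in MI-NS, and its part in the Pde4b values was not tested. Pde3a, the PDE inhibited by milrinone, and Pde2a, the PDE that cGMP stimulates, were just short of 2-fold in cardiomyocyte-like nuclei. Pde3a was at 39.6, 73.9 and 59.6 CPM and Pde2a at 50.9, 94.6 and 83.1 CPM, with log2 ratios of 0.90 [0.57 to 1.23] and 0.89 [0.61 to 1.18] for MI-NS against Sham-NS. Both kept these ratios in the Aqp4-led cluster, at 0.91 and 0.97. Sham-NS was the lowest library for Pde3a, Pde2a and Pde4b.

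Pde4d, the PDE bound to the ryanodine receptor and beta receptor complexes, was read at 89.8, 126 and 74.1 CPM in cardiomyocyte-like nuclei, with log2 ratios of 0.49 [0.26 to 0.72] and -0.77 [-1.02 to -0.52]. Pde4a and Pde7a had the opposite direction after infarction, at 416, 317 and 391 CPM and, for Pde7a in Sham-NS and MI-NS, at 363 and 281 CPM. In MI-DAPA against MI-NS they parted, with Pde4a at a log2 ratio of 0.30 [0.17 to 0.44]. Pde7a was at -0.17 [-0.32 to -0.02] from 918 MI-DAPA UMIs, a sign that TMM scaling turned. Pde5a, the cGMP PDE that sildenafil inhibits, had 4, 3 and 2 UMIs in cardiomyocyte-like nuclei. In pericyte-like nuclei it was read at 85.1, 152 and 123 CPM (29, 27 and 28 UMIs).

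Pde4c was a pericyte gene here and was lower in MI-NS in each class with enough UMIs to read. Pericyte-like nuclei held it at 1156 CPM in Sham-NS (394 UMIs), 412 CPM in MI-NS (73 UMIs) and 682 CPM in MI-DAPA (155 UMIs). MI-NS was 2.79-fold below Sham-NS (log2 -1.48 [-1.87 to -1.13]), and MI-DAPA lay between them, at 0.72 [0.32 to 1.15] above MI-NS. It was the member past 2-fold among 14 measurable in this class, against 8.18% of all genes. In MI-DAPA against MI-NS the member past 2-fold was Pde3a (1 of 12; 4.08% of all genes), at 138, 220.0 and 96.8 CPM in the 3 libraries. The fibroblast marker list in pericyte-like nuclei was 567, 2042 and 871 CPM, also highest in MI-NS, and its part in the Pde3a values was not tested. Vascular endothelial-like nuclei had Pde4c at 86.6, 36.6 and 74.7 CPM (100, 25 and 49 UMIs), 2.33-fold lower in MI-NS than in the sham library and 2.02-fold higher in MI-DAPA than in MI-NS. With members kept in the clustering these log2 ratios were -2.47 and 1.97. That class held 1578, 243 and 384 nuclei in Sham-NS, MI-NS and MI-DAPA, against 1715, 945 and 977 here, so the ratios cover different sets of nuclei. With classes set by marker level they were -1.17 and 0.92, which ends the 2-fold call for MI-DAPA. The pericyte marker list in vascular endothelial-like nuclei was 148, 174 and 111 CPM, and its part in these values was not tested. Over the 7 classes with at least 20 Pde4c UMIs in these libraries, MI-NS was below Sham-NS in 7.

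Pde8a, a high-affinity cAMP PDE, was lower in the fibroblast-like nuclei of both infarct libraries. It was read at 49.0 CPM in Sham-NS (65 UMIs), 11.5 CPM in MI-NS (21 UMIs) and 20.0 CPM in MI-DAPA (22 UMIs), which is 4.18-fold lower in MI-NS than in the sham library (log2 -2.06 [-2.87 to -1.36]). In the Has2-led and Vcan-led cluster alone it was 83.8, 18.2 and 22.4 CPM from 15, 10 and 12 UMIs, and with classes set by marker level the log2 ratio was -1.36. Pde9a, a cGMP PDE that acts on the natriuretic peptide pool, was 47.5, 53.3 and 82.6 CPM in fibroblast-like nuclei, the highest in MI-DAPA (log2 0.63 [0.20 to 1.06] against MI-NS). Pde1b in macrophage-like nuclei was at 138, 159.9 and 194 CPM, with intervals that included 0.

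Prkar1a, the type I regulatory subunit that holds PKA inactive until cAMP binds, was higher in the cardiomyocyte-like nuclei of both infarct libraries. Its level was 109.6 CPM in Sham-NS (437 UMIs), 288 CPM in MI-NS (611 UMIs) and 189.5 CPM in MI-DAPA (696 UMIs). MI-NS was 2.62-fold above Sham-NS (log2 1.39 [1.21 to 1.57]), and MI-DAPA was below MI-NS (-0.60 [-0.76 to -0.44]) and above Sham-NS. The Myh7-led cluster held it at 365 CPM in MI-NS and 240.3 CPM in MI-DAPA, and the Aqp4-led cluster at 106, 168 and 161 CPM in the 3 libraries. Within the Aqp4-led cluster the log2 ratio of MI-NS to Sham-NS was 0.66 [0.37 to 0.94], and that of MI-DAPA to MI-NS was -0.06 [-0.34 to 0.23]. The Myh7-led cluster had 45 sham nuclei, 491 MI-NS nuclei and 376 MI-DAPA nuclei. Adcy6 did not divide this way: in MI-NS it was at 501 CPM in the Aqp4-led cluster and 494 CPM in the Myh7-led one, and in Sham-NS at 1194 and 1244 CPM. In other classes Prkar1a differed less, with 188, 224 and 174 CPM in fibroblast-like nuclei and 141, 212 and 148 CPM in vascular endothelial-like nuclei.

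The 2 catalytic subunits differed from each other. Prkaca, the main catalytic subunit of the heart, was read in cardiomyocyte-like nuclei at 44.9, 46.1 and 31.0 CPM, with a log2 ratio of 0.04 [-0.33 to 0.40] for MI-NS against Sham-NS, which TMM scaling turns to -0.19, and of -0.57 [-0.97 to -0.17] for MI-DAPA against MI-NS. Prkacb was read at 9.28, 20.2 and 16.3 CPM from 37, 43 and 60 UMIs, 2.18-fold higher in MI-NS than in the sham library (log2 1.12 [0.46 to 1.80]). It is 0.89 with TMM scaling and 0.84 with classes set by marker level, both short of 2-fold, and 1.47 in the Aqp4-led cluster.

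Prkg1, the cGMP-dependent kinase of smooth muscle and cardiomyocytes, was higher in the cardiomyocyte-like nuclei of both infarct libraries. It was read at 5.02 CPM in Sham-NS (20 UMIs), 24.0 CPM in MI-NS (51 UMIs) and 19.9 CPM in MI-DAPA (73 UMIs). MI-NS was 4.71-fold above Sham-NS (log2 2.24 [1.49 to 3.08]), and MI-DAPA differed from MI-NS by -0.28 [-0.81 to 0.27]. In the Aqp4-led cluster alone it was at 4.95, 18.0 and 19.6 CPM, with both infarct libraries again above the sham library. With classes set by marker level in each nucleus the MI-NS against Sham-NS log2 ratio was 1.31. The fibroblast marker list in cardiomyocyte-like nuclei was 91.0 CPM in Sham-NS, 304 CPM in MI-NS and 78.7 CPM in MI-DAPA, with all 8 markers detected in each library, and the 8-marker pericyte list was 179.8, 119 and 115 CPM. The fibroblast list was highest in MI-NS, as Prkg1 was, and the part of these lists in the Prkg1 values was not tested. Pericyte-like nuclei held Prkg1 at 164, 84.6 and 172 CPM, with MI-NS the lowest of the 3 (56, 15 and 39 UMIs).

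**Figure D5:**
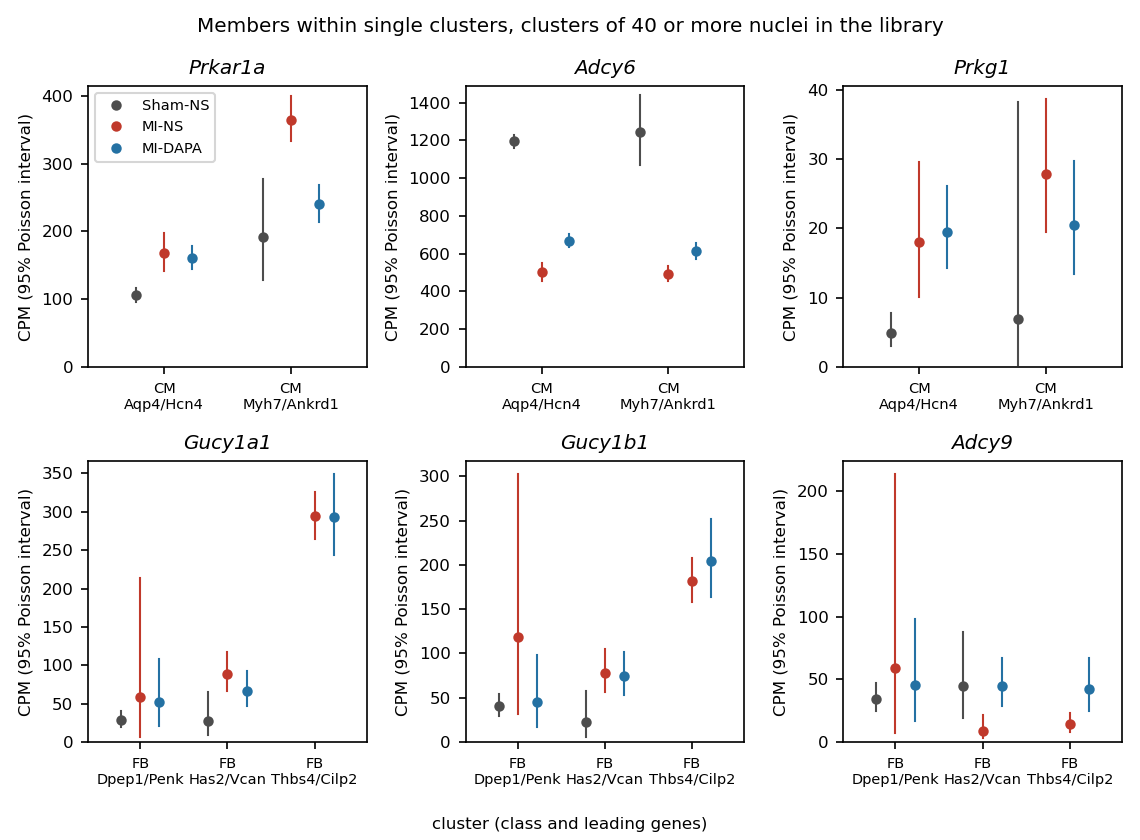
Levels in CPM of Prkar1a, Adcy6 and Prkg1 in the 2 cardiomyocyte-like (CM) clusters and of Gucy1a1, Gucy1b1 and Adcy9 in 3 fibroblast-like (FB) clusters, for each library with at least 40 nuclei in the cluster. Points are libraries (grey Sham-NS, red MI-NS, blue MI-DAPA) and lines are 95% Poisson intervals. Adcy6 in MI-NS is at 501 and 494 CPM in the 2 CM clusters, whereas Gucy1a1 is at 294 and 293 CPM in the Thbs4-led cluster of MI-NS and MI-DAPA and lower in the other FB clusters.

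The smooth muscle-like class was small, with 47 to 75 nuclei per library and 2 members that could be measured. Adcy6 was past 2-fold in MI-NS against Sham-NS (1 of 2; 22.5% of all genes), and Adcy6 and Gucy1a1 were in MI-DAPA against MI-NS (2 of 2; 11.5% of all genes). In endocardial-like nuclei Adcy7 was 2.03-fold higher in MI-NS than in the sham library (1 of 7 members; 11.6% of all genes), at 83.4 and 169 CPM, and in MI-DAPA it was at 54.1 CPM from 4 UMIs.

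The other genes of the pathway were read from 8 lists made with earlier results of these data known. In cardiomyocyte-like nuclei of MI-NS against Sham-NS, 1 of 9 measurable receptor kinases, arrestins and RGS proteins was past 2-fold, with a list median of 0.35. Over all genes of this comparison 9.62% were past 2-fold, 7.38% higher and 2.23% lower, and the median was 0.13, so 1 of 9 is near the background. That gene was Grk5, a kinase that uncouples beta receptors, at 6.77 CPM in Sham-NS and 26.4 CPM in MI-NS (log2 1.95 [1.27 to 2.68]). Of 9 G protein genes, 2 were at least 2-fold higher, Gnb1 (1.40) and Gnao1 (1.29), and the median was 0.31. Of 12 contractile and calcium targets of PKA, Rrad, which restrains the calcium channel until PKA releases it, was at least 2-fold higher (152 and 428 CPM, 1.49 [1.34 to 1.65]), while Ryr2, the calcium release channel, was at 7129 and 4793 CPM (-0.57 [-0.61 to -0.54]), and the median was 0.46. Of 6 other effectors of the cyclic nucleotides, 0 were past 2-fold, and the median was 0.36.

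In fibroblast-like nuclei 3 of 9 receptor kinases, arrestins and RGS proteins were at least 2-fold higher in MI-NS than in the sham library, against 8.88% of all genes. Rgs4, which shortens G protein signals, was at 6.78 and 54.4 CPM (log2 2.93 [2.02 to 4.17]), Rgs12 was at 1.32 [0.72 to 2.00] and Rgs3, named after its value was seen, at 1.18. Among 13 measurable PKA anchors and inhibitors 2 were at least 2-fold higher and 2 lower, against 8.88% and 3.86% of all genes. Cmya5 was at 52.0 and 204 CPM and Pkig at a log2 ratio of 1.03, while Synm was at 113 and 30.8 CPM and Akap8 at a log2 ratio of -1.55. The cardiomyocyte marker list in fibroblast-like nuclei was 5687 CPM in Sham-NS and 2976 CPM in MI-NS. Its part in the Synm and Cmya5 values was not tested. Of the 3 measurable genes that feed cGMP apart from soluble guanylyl cyclase, 0 were past 2-fold, with Npr1, a natriuretic peptide receptor, lower in MI-NS (66.3 and 39.0 CPM, -0.76 [-1.24 to -0.30]).

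Akap8, which anchors PKA in the nucleus, was lower in MI-NS than in the sham library in all 4 of the classes read for the lists, with log2 ratios for MI-NS against Sham-NS of -1.05 in cardiomyocyte-like, -1.55 in fibroblast-like, -1.66 in vascular endothelial-like and -1.24 in macrophage-like nuclei. In MI-DAPA against MI-NS it was higher by 0.96 in cardiomyocyte-like, 1.34 in fibroblast-like, 1.56 in vascular endothelial-like and 1.17 in macrophage-like nuclei. Most measurable PKA anchors and inhibitors shared these directions, save in cardiomyocyte-like nuclei of MI-NS. For MI-NS against Sham-NS 6 of 12 were higher in cardiomyocyte-like and 4 of 13 in fibroblast-like nuclei. In vascular endothelial-like nuclei 1 of 12 was higher, and in macrophage-like nuclei 1 of 10. Of all genes 55.5% to 59.9% were higher. For MI-DAPA against MI-NS the counts were 9 of 12, 11 of 13, 11 of 13 and 8 of 8, against 34.9% to 49.96%. Among 9 CREB and cAMP-response genes in cardiomyocyte-like nuclei 2 were at least 2-fold higher and 1 at least 2-fold lower in MI-NS than in the sham library, with a median of -0.04. Fos, an early response gene, was at 2.51 and 31.1 CPM (log2 3.57 [2.66 to 4.76]), Sik1 at 10.8 and 30.6 CPM, and Per1, a circadian clock gene that CREB can induce, at 119 and 17.9 CPM (-2.72 [-3.26 to -2.26]). Per1 was also lower in MI-NS in fibroblast-like (-2.68), macrophage-like (-2.39) and vascular endothelial-like (-1.96) nuclei.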

How the data were processed

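Nuclei of mouse hearts were profiled with Chromium 3' chemistry, per the labels' protocols. The authors deposited UMI counts per gene and barcode, made with Cell Ranger 6.0.1 per the file headers. The build mm10 and Seurat are named in the submitters' processing notes. Which reference release was used, and whether intronic reads counted, is not given in the sources used here.

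Nuclei with at least 300 genes and at most 10% mitochondrial UMIs were kept. Scrublet in scanpy 1.11.5 called 0, 1 and 2 doublets in Sham-NS, MI-NS and MI-DAPA and so did not work here. Instead, any cluster whose median doublet score exceeded 0.1 was removed (15.1%, 10.1% and 10.2% of nuclei). Counts per 10000 UMIs were log-transformed, and 2000 variable genes, less the 11 members among them, gave 30 principal components and 15 neighbours. Leiden clustering (leidenalg 0.10.2) ran at resolution 1.0, and libraries were not batch-corrected. Names written "-like" come from 21 marker lists, with 3 or more markers required to exceed all remaining nuclei 2-fold or more. These names were rebuilt here and may differ from the study's.

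UMIs were summed per class and library. For log2 ratios of CPM, every sum was raised by 0.5 UMI. Genes needed 50 UMIs or more in the 2 libraries combined to be measurable. A count of 0 allows up to 3 counts. UMI totals per class and library were 2124891 to 3987435 in cardiomyocyte-like, 1102003 to 1819838 in fibroblast-like, 656347 to 1154125 in vascular endothelial-like and 268101 to 794133 in macrophage-like nuclei. The ratio and interval computation was tested on simulated data.

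The symbol rule that sets the members, and the lists, were chosen with earlier results of these data known. Any member could be named, each measurable member at least 2-fold different was named, and up to 2 genes at each end of a pathway list. Alternatives were TMM scaling (edgeR 4.0.16), other UMI minima, stricter nuclei, resolution 2.0, classes by marker level, members kept among the variable genes and mixed clusters kept. Coordinates are from GENCODE vM21, which held all 53 members, and promoters from RefSeq (GRCm38.p6). Values of 1 member are not reported here, although it is counted among the 53.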

Additional observations from a re-analysis of the deposited data

Results flagged for a closer look

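Some members differed from sham in opposite directions in different cell classes, each with a counting interval that excluded 0. The difference between classes was not tested, and there is 1 library per group. For MI-NS against Sham-NS, Pde7a had log2 ratios of 0.57 in fibroblast-like, -0.37 in cardiomyocyte-like and -0.97 in vascular endothelial-like nuclei. Pde2a was at 0.89 in cardiomyocyte-like and -0.33 in vascular endothelial-like nuclei. Adcy7 was at 0.81 in fibroblast-like, 0.84 in vascular endothelial-like and -0.26 in macrophage-like nuclei. In vascular endothelial-like nuclei the fibroblast marker list was 406, 1343 and 318 CPM in the 3 libraries, and its part in the Adcy7 value was not tested.

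Adrb3 gave a signal in nuclei that enter no comparison. It was read at 1659 CPM in the 87 adipocyte-like nuclei of MI-NS, and with 0 UMIs in the 2 such nuclei of Sham-NS.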

How the results depend on the processing

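No paired analysis was possible because the groups share only replicate number 1. With 1 library per group no result has a replicate check. Alternatives were run for cardiomyocyte-like, fibroblast-like, vascular endothelial-like and macrophage-like nuclei. Ratios of pericyte-like, smooth muscle-like, endocardial-like and lymphatic endothelial-like nuclei were not recomputed. Of 877 member ratios recomputed under the alternatives, 806 stayed inside the reported counting interval and 71 moved outside it. No member past 2-fold changed sign, but TMM scaling turned the sign of smaller ratios: Adcy4 in vascular endothelial-like and macrophage-like nuclei, Pde10a in vascular endothelial-like nuclei and Prkaca in cardiomyocyte-like nuclei for MI-NS against Sham-NS, and, for MI-DAPA against MI-NS, Pde2a and Pde7a in cardiomyocyte-like nuclei. TMM moved the median of all genes for MI-NS against Sham-NS by -0.23 in cardiomyocyte-like, -0.12 in fibroblast-like, -0.21 in vascular endothelial-like and -0.11 in macrophage-like nuclei, and for MI-DAPA against MI-NS by 0.26 in cardiomyocyte-like and 0.12 in vascular endothelial-like nuclei.

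The counts of members past 2-fold depend most on the UMI minimum, and the numbers here follow the order MI-NS against Sham-NS, then MI-DAPA against MI-NS. With no minimum they were 16 and 9 for cardiomyocyte-like, 20 and 12 for fibroblast-like, 9 and 15 for vascular endothelial-like and 15 and 15 for macrophage-like nuclei, while 22.2% to 35% of all genes were past 2-fold. With a minimum of 200 UMIs they were 3 of 14 and 0 of 11, 2 of 9 and 0 of 9, and 0 of 4 and 0 of 4. In macrophage-like nuclei it was 0 of 2 for MI-NS against Sham-NS. With classes set by marker level, cardiomyocyte-like nuclei had 2 of 27 for MI-DAPA and fibroblast-like nuclei 7 of 26 and 2 of 24. Vascular endothelial-like nuclei had 2 of 17 and macrophage-like nuclei 2 of 16 for MI-NS. With members kept among the variable genes, fibroblast-like nuclei had 2 of 23 for MI-DAPA and vascular endothelial-like nuclei 4 of 10 and 2 of 4. With mixed clusters kept, vascular endothelial-like nuclei had 4 of 21 for MI-NS and macrophage-like nuclei 2 of 21 and 1 of 15. The stricter nucleus filter gave 0 of 16 in fibroblast-like and 0 of 5 in vascular endothelial-like nuclei for MI-DAPA. It gave 2 of 8 in macrophage-like nuclei for MI-NS. No smooth muscle-like class was left under this filter, or with members kept among the variable genes. Resolution 2.0 gave 0 of 5 for MI-DAPA in vascular endothelial-like and 2 of 11 for MI-NS in macrophage-like nuclei. TMM gave 2 of 13 for MI-NS in vascular endothelial-like nuclei. The share of all genes past 2-fold is given only for the setting with no minimum. The other counts have no background beside them. The cause of these shifts was not tested.

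Single clusters were read as alternatives chosen after seeing the data. In the Aqp4-led cardiomyocyte cluster 2 of 17 and 0 of 17 members were past 2-fold. In the Has2-led and Vcan-led fibroblast cluster it was 2 of 8 and 0 of 12. Fewer members were measurable in each than in the class, and no share of all genes is given.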
